A study of Mus musculus with 16 samples.

Results

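Kidneys of aged male C57BL/6 wild-type mice given either of 2 related herbal formulas were treated as one group and compared with kidneys of untreated aged mice. The treated group holds 6 libraries, 3 from mice given Yukmijihwang-tang (Old+YM) and 3 from mice given Palmijihwang-tang (Old+PM), and the untreated group, Old, holds 5. These are 11 of the 16 libraries of the study, and the other 5 come from untreated mice aged 3 months (Young). The mice received 100 mg/kg/day of a formula orally, 5 days each week, between the ages of 19 and 24 months. The labels in one place name YM where they give the PM dose. All 3 aged groups shared an acclimatization of 5 months. No source used here states how old the Old mice were at sampling. RNA was measured by QuantSeq, which sequences the end of each transcript next to its poly(A) tail, so a count stands for a transcript and not for its length. Nothing in the labels ties each library to a mouse of its own, and all p-values therefore measure only the spread between these libraries, which may be technical.

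Yukmijihwang-tang is a decoction built on prepared Rehmannia root, and Palmijihwang-tang adds cinnamon bark and processed aconite to the same herbs. Both belong to East Asian traditional medicine, where they are given for complaints of the kidney and of old age. The kidney filters blood in the glomerulus and takes back salt, glucose, amino acids and phosphate along the proximal tubule, which burns fatty acids and amino acids in densely packed mitochondria. Ageing kidneys are known for immune cell infiltration, fibrosis and lower mitochondrial and transport gene expression. Taking both formulas as one group asks which transcripts moved in the treated mice whichever formula they received.

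No transcript passed the test in that comparison. Of 14665 genes tested by edgeR's quasi-likelihood method, 0 (0%) reached a Benjamini-Hochberg adjusted p under 0.05, and the smallest adjusted p was 0.446, for Tnfaip8. An unadjusted p under 0.05 was reached by 834 genes, where 5% of all genes tested would be 733. Of them, 288 genes (1.96% of all tested) were at a higher level in treated kidneys and 546 (3.72%) at a lower level. Without Old+PM 3 the higher genes numbered 561. DESeq2 called 2 genes, Tnfaip8 and Tulp4, both lower in treated kidneys, and limma-voom called 0, with 835 genes at an unadjusted p under 0.05.

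The differences were small around a median near 0. The median log2 difference, treated minus Old, was -0.01 over all genes tested, and 48.0% of genes had a difference above 0. For 7781 genes (53.1%) the whole 95% interval of the difference lay inside a 1.5-fold change in either direction, and for 11280 genes (76.9%) it lay inside a 2-fold change. That precision followed the level of the gene. Among 4517 genes with a mean of 20 to 100 counts-per-million units (CPM) over the aged libraries, the median standard error (SE) was 0.13 on the log2 scale and 87.3% of intervals lay inside 1.5-fold. Among 3291 genes at 1 to 5 CPM the median SE was 0.38 and 2.86% did so, so a 1.5-fold change was not detectable for most genes at that depth. The plot of all genes shows this widening at low levels. A higher level did not ensure a call either: Tnfaip8, at a mean of 382 CPM in Old, had a log2 difference of -0.63 (SE 0.12) and an edgeR adjusted p of 0.446.

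**Figure D1:**
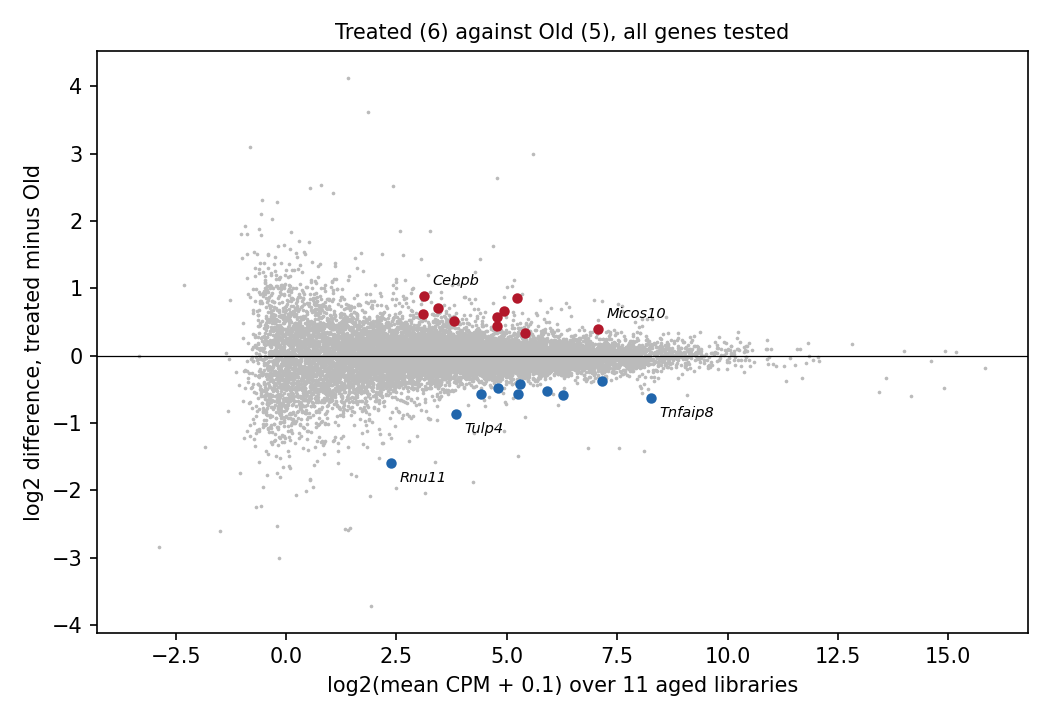
Each grey point is one of the 14665 genes tested, by its mean level over the 11 aged libraries on the x axis (log2 of CPM + 0.1) and its log2 difference, treated minus Old, on the y axis. The 10 genes of smallest unadjusted p in each direction are red (higher in treated) and blue (lower in treated). They lie at the edge of the cloud at their level, and none passed the test.

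The libraries themselves differed in ways that touch these values. Totals ran from 8223008 to 10914515 counts. Kidney identity was clear in both groups: Kap, the androgen-regulated kidney protein of the proximal tubule, stood at 15932 ± 3725 CPM in Old (SD, n = 5) and 16690 ± 3260 CPM in treated kidneys (SD, n = 6), and Umod, the uromodulin of the thick ascending limb, at 1342 ± 106 and 1529 ± 186 CPM. Old 5 stood apart by immune and dividing-cell markers: its mean over 26 macrophage and dendritic cell markers was 4.89 log2 CPM, against 2.75 to 3.40 in the other Old libraries and 2.91 to 3.72 in the treated ones. A score of clock genes was -1.67 in Old 4, -0.48 in Old+YM 3 and -0.06 in Old+PM 3 and positive in the other aged libraries. Its means were 1.18 in Old and 0.82 in treated libraries, within the spread between libraries (two-sided exact permutation test, p = 0.662). Mitochondrial ribosomal RNA took 5.05 ± 0.912% of counts in Old (SD, n = 5; 4.06 to 6.17%) and 3.70 ± 0.602% in treated libraries (SD, n = 6; 3.05 to 4.56%), with overlap (two-sided exact permutation test, p = 0.0238; 0.0952 adjusted over 4 library measures). With the clock score as a covariate, treated against Old still gave 0 genes in edgeR (1045 at an unadjusted p under 0.05), and without the mitochondrial genome also 0 (817).

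Among genes at a lower level in treated kidneys, Tnfaip8 had the smallest p. It encodes the founding member of a family of TNF-induced regulators of cell survival and inflammation. Its levels were 363, 426, 478, 349 and 296 CPM in Old 1 to 5, 266, 263 and 194 CPM in Old+YM 1 to 3, and 249, 247 and 264 CPM in Old+PM 1 to 3. Every treated library was below every Old library, and Old 5 came closest to the treated ones. The log2 difference was -0.63 (SE 0.12, 95% interval -0.88 to -0.38, edgeR unadjusted p = 3.04e-05, adjusted p = 0.446). The Young mean was 415 ± 43.1 CPM (SD, n = 5). Over 22 alternative fits the adjusted p of Tnfaip8 ran from 0.00988 with DESeq2 to 0.9998 with the replicate number as a block, and it passed in 2 of them, with DESeq2 and without Old 4 and Old 5 (0.0273).

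Tulp4, a member of the tubby-like protein family, lies on chromosome 17 from 6106437 to 6251128 (plus strand, GRCm38). Its levels were 17.1, 17.0, 21.0, 26.6 and 14.0 CPM in Old 1 to 5, 12.8, 9.48 and 10.5 CPM in the Old+YM libraries and 10.1, 9.63 and 10.3 CPM in the Old+PM libraries. Again no treated library reached the lowest Old library. The log2 difference was -0.87 (SE 0.18, edgeR adjusted p = 0.57), and DESeq2 gave an adjusted p of 0.0371.

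Rnu11 is the U11 small nuclear RNA of the minor spliceosome, which removes a rare class of introns, and it lies on chromosome 4 from 132270080 to 132270213. It had the widest gap of the named genes, with 9.15, 6.78, 8.75, 8.08 and 7.48 CPM in Old 1 to 5, 1.55, 2.55 and 1.94 CPM in the Old+YM libraries and 2.70, 4.95 and 2.17 CPM in the Old+PM libraries. The log2 difference was -1.59 (SE 0.35, 95% interval -2.33 to -0.85, edgeR adjusted p = 0.57). The Young libraries, at 2.41 ± 1.5 CPM (SD, n = 5), were at the level of the treated ones. At these levels 1 CPM is about 8 counts in the smallest library. U11 is not known to carry a poly(A) tail, and what a 3' method reads from it was not tested.

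The next 4 lower genes have varied roles. Npm1, the nucleolar chaperone of ribosome assembly, ran from 144 to 175 CPM in Old and from 110 to 139 CPM in treated libraries, with no overlap (log2 difference -0.37, SE 0.09). Npm1 has many processed copies in the genome, so its count is uncertain. Rad50, a subunit of the complex that binds DNA double-strand breaks, was 33.0 ± 2.91 CPM in Old (SD, n = 5) and 23.7 ± 3.57 CPM in treated kidneys (SD, n = 6), a log2 difference of -0.48, and only Old+YM 2, at 29.8 CPM, reached into the range of Old. Fmn1, a formin that nucleates actin filaments, lay at 42.1 to 49.7 CPM in Old and 28.6 to 37.4 CPM in treated libraries, and Fnbp4, a formin-binding protein, at 21.1 to 32.7 and 15.3 to 22.1 CPM. The log2 differences were -0.43 for Fmn1 and -0.57 for Fnbp4. The edgeR adjusted p was 0.57 for Npm1 and Rad50, 0.58 for Fmn1 and 0.64 for Fnbp4.

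The last 3 of the 10 lower genes follow. Apob, the structural protein of lipoprotein particles, was at 44.5, 33.1, 42.5, 62.9 and 48.4 CPM in Old 1 to 5 and between 27.4 and 35.0 CPM in treated libraries, so Old 2 lay within the treated range (log2 difference -0.57, SE 0.13). Isoc1, an isochorismatase-domain protein, ran from 57.2 to 84.8 CPM in Old and from 40.7 to 53.5 CPM in treated libraries without overlap (log2 difference -0.53). Uap1l1, a relative of the enzyme that makes UDP-N-acetylglucosamine, was at 78.3 to 112 CPM in Old, 49.8 to 65.3 CPM with YM and 59.5 to 86.5 CPM with PM (log2 difference -0.58). All 3 had an edgeR adjusted p of 0.57.

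Among genes at a higher level in treated kidneys, Micos10 had the smallest p. It encodes a subunit of the complex that shapes the cristae of the mitochondrial inner membrane. Its levels were 121, 122, 121, 104 and 105 CPM in Old 1 to 5, 160, 168 and 161 CPM in the Old+YM libraries and 151, 131 and 136 CPM in the Old+PM libraries. The treated libraries lay above every Old library. Old+PM 2 and Old+PM 3 lay below the Young range of 146 to 194 CPM, and the other treated libraries lay within it. The log2 difference was 0.40 (SE 0.10, 95% interval 0.19 to 0.61, edgeR unadjusted p = 0.000596, adjusted p = 0.638).

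The acute-phase transcription factor gene Cebpb was at 5.07, 4.30, 4.27, 7.69 and 8.08 CPM in Old 1 to 5, at 9.20, 14.1 and 14.0 CPM with YM and at 9.87, 7.86 and 10.6 CPM with PM. Old+PM 2 alone lay within the Old range. The log2 difference was 0.89 (SE 0.24, edgeR adjusted p = 0.68). Agt encodes angiotensinogen, the substrate that renin cleaves, and lies on chromosome 8 from 124556534 to 124569706 (minus strand). Its levels were 18.6, 24.8, 17.8, 17.1 and 29.0 CPM in Old 1 to 5, 22.3, 38.2 and 32.3 CPM with YM and 34.7, 33.9 and 30.5 CPM with PM. Old+YM 1 lay inside the Old range, and the other treated libraries lay above it. The log2 difference was 0.57 (SE 0.15, edgeR adjusted p = 0.68).

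The sequences just before the starts of Agt and Apob are shown because both genes are textbook products of the liver, where C/EBP factors such as the product of Cebpb act on them, and they stood on opposite sides here. They are the 150 bases before the RefSeq start in the mouse build GRCm38.p6, 5′ to 3′, for Agt at chr8:124569707-124569856 (minus strand) and for Apob at chr12:7977527-7977676 (plus strand). Capitals mark matches on either strand to the TATA box letters TATAAA or to the C/EBP letters TTGCNNAA.
Agt: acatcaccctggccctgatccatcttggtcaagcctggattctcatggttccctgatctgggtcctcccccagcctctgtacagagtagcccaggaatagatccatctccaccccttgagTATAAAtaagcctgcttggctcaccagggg
Apob: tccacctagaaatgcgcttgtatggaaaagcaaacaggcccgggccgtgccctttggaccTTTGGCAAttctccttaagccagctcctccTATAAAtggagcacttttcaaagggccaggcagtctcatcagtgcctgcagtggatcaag
The TATA match began 30 bases before the start in Agt and 60 bases before it in Apob, and the C/EBP match in Apob began 90 bases before it. In windows from 250 bases before to 50 after the start, TATAAA was found for 4 of the 10 higher genes (Agt, Cebpb, Mettl7a2 and Micos10) and for 1 of the 4 lower genes with a window (Apob), beside 13.6% of all 32851 windows. TTGCNNAA was found for 0 of the 10 higher and 2 of the 4 lower genes (Apob and Fmn1), beside 10.8% of all windows. A named gene was counted if any of its windows matched, whereas the percentages are per window. A match is a description of the letters only, and whether Cebpb acts on either gene in these kidneys was not tested.

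The other higher genes have varied roles. Slc10a2, the sodium-dependent bile acid transporter of apical membranes, was at 14.8, 21.6, 24.6, 32.8 and 21.8 CPM in Old 1 to 5, 23.9, 37.1 and 54.4 CPM with YM and 39.0, 29.9 and 35.1 CPM with PM (log2 difference 0.66, SE 0.19). The groups overlapped, and both lay below the Young mean of 65.1 ± 8.5 CPM (SD, n = 5). Tmco3, a membrane protein of the cation antiporter type, ran from 20.6 to 25.3 CPM in Old and from 25.5 to 34.4 CPM in treated libraries, again below Young at 52.7 ± 9.29 CPM (SD, n = 5), with a log2 difference of 0.44. The edgeR adjusted p was 0.75 for Slc10a2 and 0.68 for Tmco3.

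Ihh, the secreted ligand Indian hedgehog, was at 6.77 to 8.69 CPM in Old, at 9.82, 9.48 and 15.2 CPM with YM and at 17.5, 11.5 and 15.5 CPM with PM (log2 difference 0.71, SE 0.20). Wdr4, the partner subunit of a tRNA methyltransferase, ran from 9.17 to 12.4 CPM in Old and from 13.6 to 20.2 CPM in treated libraries (log2 difference 0.51). Neither gene overlapped between the groups. Gmds, the first enzyme of GDP-fucose synthesis, was at 4.77 to 7.83 CPM in Old and 7.13 to 12.6 CPM in treated libraries (log2 difference 0.61). Dmgdh, a mitochondrial enzyme of choline breakdown, was at 32.9 to 39.1 and 38.2 to 50.7 CPM (log2 difference 0.34), where Old+YM 1 alone reached the Old range. Mettl7a2, a methyltransferase-like protein with near-identical neighbouring genes and so an uncertain count, was at 13.1 to 40.1 and 33.1 to 61.5 CPM (log2 difference 0.86). The edgeR adjusted p of these 5 genes was 0.68 or 0.75.

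**Figure D2:**
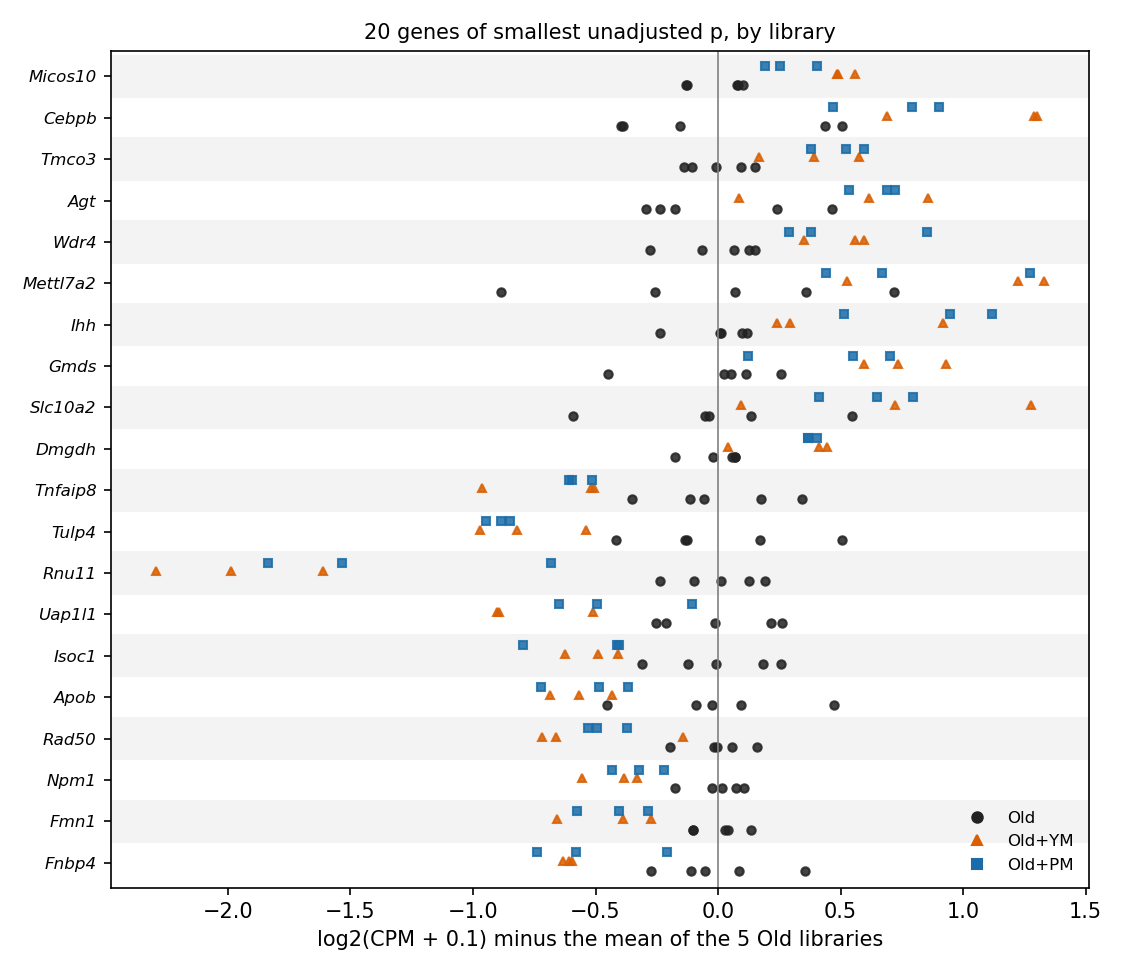
Levels of the 20 named genes in the 11 aged libraries, as log2(CPM + 0.1) minus the mean of the 5 Old libraries (x axis), with Old as circles, Old+YM as triangles and Old+PM as squares. Upper rows are the 10 higher and lower rows the 10 lower genes; in 10 of the 20 no treated point overlaps the Old points, and Rnu11 has the widest gap.

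The 20 genes were chosen for their small p, so the separation seen in that plot is part of the choice. Of the 10 higher genes 4 had no overlap between treated and Old libraries, and of the 10 lower genes 6. Over all genes tested, 22 (0.150%) had every treated library above every Old library and 62 (0.423%) had every treated library below every Old library. Of the 62, 3 are given here, chosen after their values were seen: Suz12, a subunit of the Polycomb complex that methylates histone H3, at 36.9 to 44.9 CPM in Old and 26.0 to 36.8 CPM in treated libraries; Ep300, a histone acetyltransferase, at 41.5 to 50.2 and 32.5 to 40.6 CPM; and Pola1, the catalytic subunit of DNA polymerase alpha, at 12.6 to 16.9 and 6.93 to 10.4 CPM. None of these 3 passed either (edgeR adjusted p = 0.68 for Suz12 and Pola1, 0.75 for Ep300).

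The lower genes tended to be long. Among genes of at least 5 CPM, 9.68% of the 1374 that span over 100 kb were lower at an unadjusted p under 0.05 and 0.80% were higher. Of the 2324 genes that span under 10 kb, 1.81% were lower and 2.97% higher. The median log2 difference went from 0.04 in the shortest class to -0.06 in the longest, and Spearman's rank correlation between span and difference was -0.19 across 10012 genes, which share the same libraries and are not independent. The mean log2 level of the over 100 kb class, centred over libraries, ran from -0.02 to 0.10 in Old and from -0.08 to 0.01 in treated libraries. The groups thus overlapped. Old 5 was the highest and Old+PM 3 the lowest of the aged libraries, and Young libraries lay at -0.06 to -0.04. The part of gene length in the results of single genes was not tested.

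Whether the 2 formulas differed was tested directly. Between Old+PM and Old+YM, 0 of 14665 genes (0%) passed in edgeR, with a smallest adjusted p of 0.0593, for Usp19, and 1878 genes (12.8%) had an unadjusted p under 0.05. That number was 1187 without Old+YM 2 and 896 without Old+PM 3. DESeq2 called 60 genes and limma-voom 4. Set beside Old, and sharing the same Old libraries, YM gave 3 genes at an edgeR adjusted p under 0.05, all higher (0.0205%), with 1389 at an unadjusted p under 0.05, and PM gave 0 (0%), with 904. DESeq2 gave 49 genes for YM. Leaving out any 1 of the 8 Old or Old+YM libraries left 0 edgeR calls for YM, except that Usp19 passed without Old 5.

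For the 20 named genes the difference between formulas, PM minus YM, had an edgeR adjusted p of at least 0.364. In 12 of them its 95% interval lay inside a 1.5-fold change either way, but the genes were chosen for a small pooled p and the same sign with both formulas, which favours a small difference, so these values are a description. Tnfaip8 differed by 0.07 (interval -0.26 to 0.41), Agt by 0.10 (-0.33 to 0.53) and Fmn1 by 0.02 (-0.27 to 0.30) on the log2 scale. Uap1l1 had the smallest p, with a difference of 0.36 (interval 0.02 to 0.69; edgeR unadjusted p = 0.0377, adjusted p = 0.364). Intervals were too wide for that bound in the other 8, among them Rnu11 (-0.31 to 1.73), Cebpb (-1.02 to 0.24), Ihh (-0.16 to 0.88) and Mettl7a2 (-0.89 to 0.43). An adjusted p above 0.05 does not show that the formulas act alike on these genes.

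**Figure D3:**
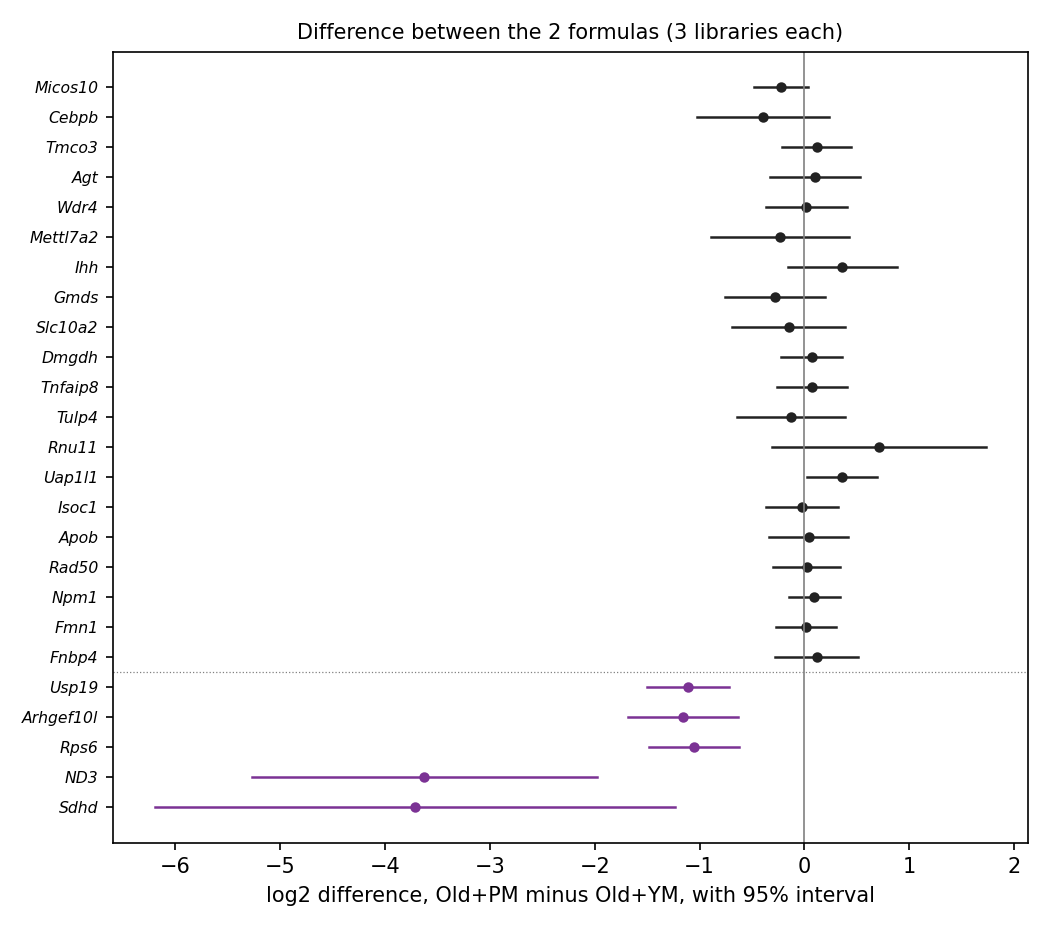
Difference between the formulas for each gene, Old+PM minus Old+YM on the log2 scale (x axis), with its 95% interval from the edgeR fit of 4 groups (3 libraries per formula). The 20 named genes (black), chosen for the same sign with both formulas, run from -0.39 for Cebpb to 0.71 for Rnu11, and 5 genes below the dotted line (purple), chosen after their values were seen, from -1.06 to -3.72, so the contrast between the sets reflects their choice.

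Some large pooled differences came with high values in the YM libraries alone. The 3 genes called for YM against Old were Usp19, a deubiquitinase, Rps6, a protein of the small ribosomal subunit, and Arhgef10l, a guanine nucleotide exchange factor. Usp19 was at 25.7 to 34.5 CPM in Old and at 34.4, 30.4 and 27.4 CPM with PM, but at 68.0, 70.0 and 61.2 CPM with YM. The log2 difference from Old was 1.08 with YM (SE 0.16, edgeR adjusted p = 0.0245) and -0.03 with PM. Rps6 was at 13.7 to 20.3 CPM in Old, 34.0 to 39.8 CPM with YM and 13.9 to 22.2 CPM with PM, and Arhgef10l at 11.1 to 14.5, 25.3 to 36.9 and 9.90 to 17.1 CPM. The symbol ND3, a complex I subunit gene of the mitochondrial genome, gave 3.11 to 16.7 CPM in Old, 139, 172 and 132 CPM with YM and 24.1, 7.42 and 4.13 CPM with PM. Sdhd, a subunit of complex II, gave 2.53 to 10.9, 55.8 to 118 and 2.79 to 12.8 CPM. Related genes mostly stood far higher in Old, with means of 30174 CPM for ND1 and 36394 CPM for CYTB, though ND6 had 5.33 CPM. Sdha, Sdhb and Sdhc had Old means of 577, 809 and 301 CPM, and Rps6 had the lowest Old mean of the 77 ribosomal protein genes tested. The counts of ND3, Sdhd and Rps6 are therefore uncertain, and whether they stand for the full level of these transcripts was not tested. The pooled log2 difference of ND3, 2.99 (SE 0.93, edgeR adjusted p = 0.777), lay between 3.88 with YM and 0.25 with PM. PM minus YM was -3.63 for ND3 (interval -5.27 to -1.98) and -1.11 for Usp19 (interval -1.5 to -0.72), and neither passed (edgeR adjusted p = 0.226 for ND3, 0.0593 for Usp19). Usp19 passed in 6 of 19 alternatives, with DESeq2, limma-voom, no filter on low counts, aged libraries only, the replicate block and the clock score, and ND3 passed with limma-voom.

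Gene groups were read from 48 lists of kidney cell types, neighbouring tissues and pathways, which cover 1052 tested genes. None of these genes passed (edgeR), and 37 were higher and 26 lower at an unadjusted p under 0.05, beside 1.96% higher and 3.72% lower over all genes tested. The genes singled out below did not pass either and were chosen for that unadjusted p or as well known members. The values of each list stand beside the median of all genes, -0.01, and no list was tested as a set.

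Nuclear genes of the respiratory chain lay mostly above 0. Of 76 tested, 69 had a difference above 0, beside 48.0% of all genes, with a median of 0.11 and 64 intervals inside 1.5-fold. At an unadjusted p under 0.05, 7 were higher and 0 lower (all genes 1.96% and 3.72%), among the 7 Ndufb2 of complex I at 186 CPM in Old and 221 CPM in treated kidneys (0.25, SE 0.09), Cox5a of complex IV at 532 and 613 CPM (0.20, SE 0.08) and Atp5g1 of the ATP synthase at 104 and 128 CPM (0.30, SE 0.11). The list's mean level ran from 7.96 to 8.23 log2 CPM in Old and from 8.15 to 8.39 in treated libraries, and Young libraries lay at 8.34 to 8.47. Old 5 was the lowest of all. Without Old 5 the median was 0.07, 60 of 76 genes were above 0 and 2 were higher at an unadjusted p under 0.05. Chain subunit genes of the mitochondrial genome did not share the rise. Of 8 tested, 3 were above 0 and 5 below, with a median of -0.15 (0.10 with YM and -0.31 with PM). The 2 mitochondrial ribosomal RNAs stood below 0, with log2 differences of -0.54 for mt-Rnr1 (SE 0.16) and -0.49 for mt-Rnr2 (SE 0.14). The edgeR adjusted p was 0.75 for both ribosomal RNAs.

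Proximal tubule genes were mixed. Of 44 tested, 28 had a difference above 0 and the median was 0.06, -0.02 without Old 5, and -0.10 without Old 4 and Old 5. At an unadjusted p under 0.05, 4 were lower and 1 higher (all genes 3.72% and 1.96%). The lower ones were Slc5a12, a lactate carrier, at 529 and 419 CPM (-0.34, SE 0.10), Slc7a7, an exporter of cationic amino acids, at 182 and 155 CPM (-0.24, SE 0.09), Slc13a1, a sulfate carrier, at 365 and 311 CPM (-0.23, SE 0.10), and Miox, which oxidises myo-inositol, at -0.38 (SE 0.13). The higher one was the protease gene Napsa (0.35, SE 0.13). Among genes of gluconeogenesis and amino acid breakdown 17 of 23 were above 0 (median 0.09), and 14 of 23 without Old 5 (median 0.02). Hao2, an oxidase of 2-hydroxy acids, was at 166 and 212 CPM (0.36), Mpc2 of the mitochondrial pyruvate carrier at 318 and 383 CPM (0.27), and G6pc, the last step of glucose release, at 320 and 239 CPM (-0.42, SE 0.16). Beside Old, Hao2 had a difference of 0.58 with YM and 0.09 with PM, and G6pc of -0.30 with YM and -0.55 with PM.

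Further along the nephron, 13 of 15 genes of the thick ascending limb had a difference above 0 (median 0.19). Cldn10, a paracellular cation channel, was at 204 CPM in Old and 255 CPM in treated kidneys (0.32, SE 0.12). Genes of the distal convoluted tubule and of calcium transport lay mostly below 0, 14 of 18, with a median of -0.11 and 16 intervals inside 1.5-fold. The magnesium channel genes Trpm6 and Trpm7 had differences of -0.41 (SE 0.14) and -0.33 (SE 0.09), and the calcium pump gene Atp2b1 -0.29 (SE 0.09). Without Old 5 these medians were 0.21 and -0.10. The thick ascending limb list's mean level ran from 5.84 to 6.10 log2 CPM in Old and from 5.86 to 6.29 in treated libraries. The distal list's mean ran from 6.84 to 6.95 in Old and from 6.64 to 7.04 in treated libraries. Old+PM 3 lay above every Old library for the distal list.

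In the renin-angiotensin system 10 of 11 genes were above 0, with a median of 0.19 (0.03 with YM and 0.24 with PM). Beside Agt, renin itself (Ren1) was at 35.2 CPM in Old and 46.4 CPM in treated kidneys (0.40, SE 0.21). Its values split by formula, with a difference from Old of 0.00 with YM and 0.72 with PM. The receptor gene Agtr1a had a difference of 0.18 (SE 0.11) and Hsd11b2, which shields the mineralocorticoid receptor from glucocorticoid, 0.19 (SE 0.09). Kl, the klotho co-receptor for FGF23 and a gene tied to ageing, was at 118 to 182 CPM in Old, 175 to 231 CPM with YM and 110 to 154 CPM with PM, with a pooled difference of 0.24 (SE 0.22). The phosphate carrier gene Slc34a1 had a difference of -0.07 (SE 0.12).

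Immune lists turned on Old 5. With all libraries, 1 of 26 macrophage and dendritic cell markers had a difference above 0 (median -0.38), as did 1 of 14 T and NK cell markers (median -0.63) and 0 of 8 MHC class II genes (median -0.46). Without Old 5 the medians were 0.29, 0.40 and 0.23, and 21 of 25, 9 of 11 and 8 of 8 genes were above 0. The interferon response list went from -0.07 to 0.51 and the complement list from -0.09 to 0.22. Lyz2, the lysozyme of macrophages, was at 63.4 CPM in Old 5, at 4.49 to 9.79 CPM in the other Old libraries and at 2.79 to 15.1 CPM in treated ones. In whole kidney, fewer cells of a type and less RNA per cell cannot be told apart. B and plasma cell markers had a median of -0.41 that went to 0.28 without Old 5 and stood at 0.37 with YM and -0.92 with PM.

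The proliferation list followed the same library. Of 26 genes 5 were above 0 (48.0% of all genes), the median was -0.48, and 6 were lower at an unadjusted p under 0.05 (3.72% of all genes). Mki67, a marker of dividing cells, was at 10.97 CPM in Old 5, 1.17 to 1.82 CPM in the other Old libraries and 0.62 to 1.40 CPM in treated ones. Without Old 5 the list's median was -0.02 and 1 gene was lower at that p. Tk1, the thymidine kinase of dividing cells, was among the 62 genes without overlap, with 8.15, 11.7, 9.07, 9.44 and 15.8 CPM in Old 1 to 5 and 4.84 to 7.86 CPM in treated libraries (-0.64, SE 0.20).

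**Figure D4:**
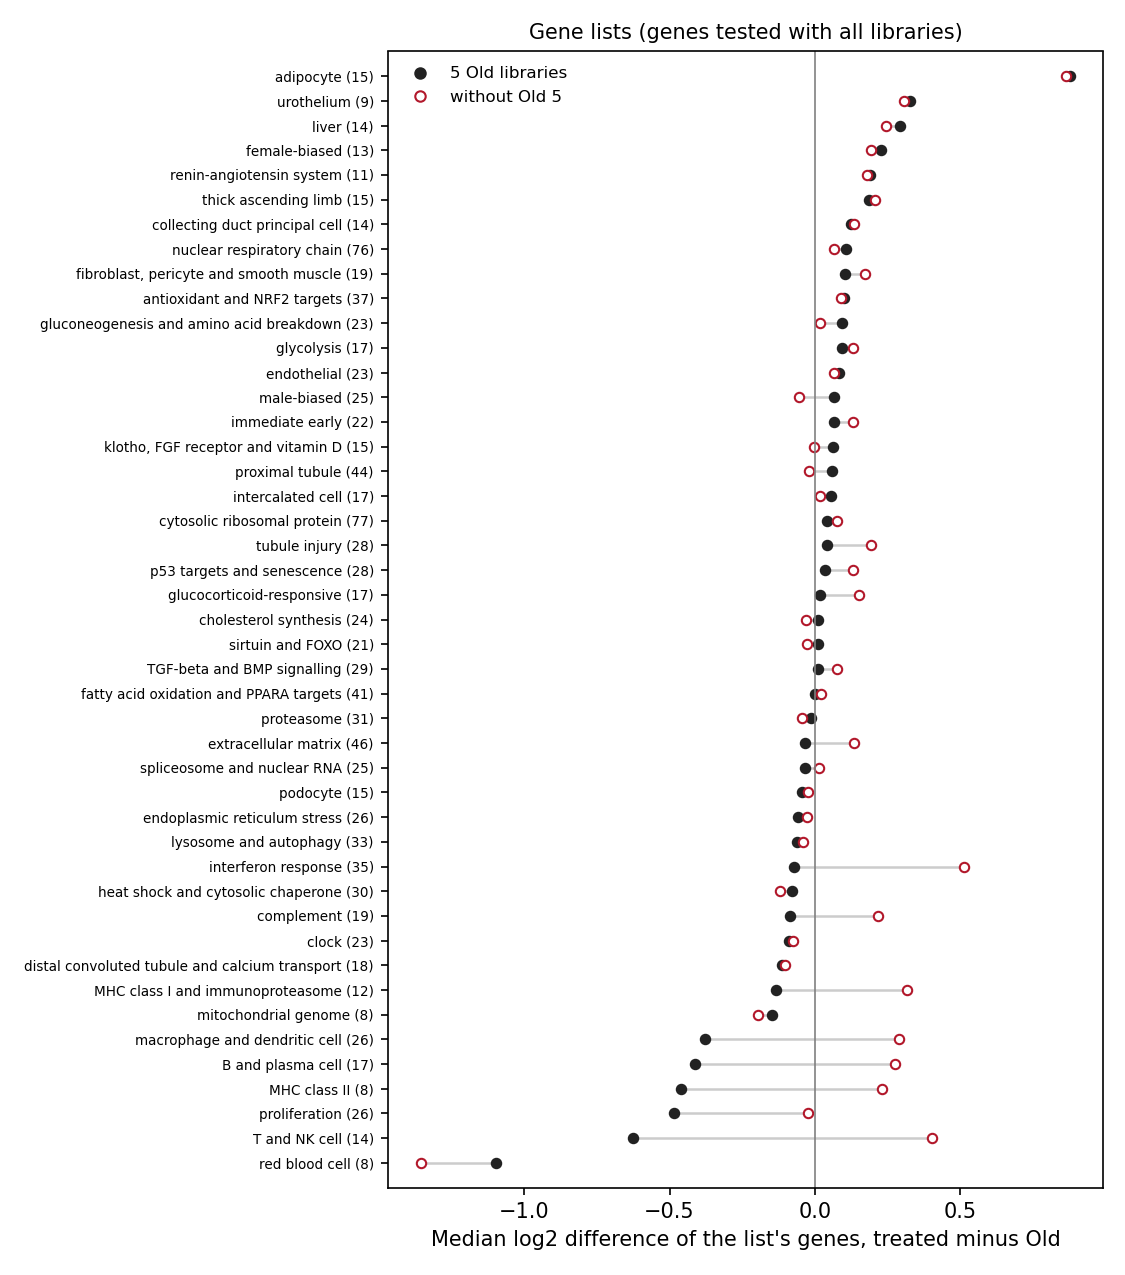
Median log2 difference, treated minus Old (x axis), of each gene list with at least 5 tested genes (number in brackets), with all 5 Old libraries (filled) and without Old 5 (open). The macrophage, T and NK, B cell, MHC, interferon and complement lists cross 0 when Old 5 is left out. Some lists with medians near 0 also cross it, such as extracellular matrix, proximal tubule and male-biased genes. The respiratory chain, thick ascending limb, distal tubule and adipocyte lists stay on their side.

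Lists of injury, scarring and cell ageing had medians between -0.03 and 0.04 that shifted upward without Old 5. Of 28 tubule injury genes 15 were above 0 (median 0.04), and Havcr1, the injury marker known as KIM-1, was at 6.81 CPM in Old and 6.77 CPM in treated kidneys (-0.02) with an SE of 0.56, so a 2-fold change was not detectable for it. Lcn2, the NGAL protein of injured tubules, had a difference of 0.82 (SE 0.49), and Cryab, a small heat shock protein, 0.53 (SE 0.22). Extracellular matrix genes had a median of -0.03 (21 of 46 above 0), and Col1a1, the main fibrillar collagen chain, a difference of 0.01 (SE 0.30). The p53 target and senescence list had a median of 0.04, with Cdkn1a, the p21 cell cycle inhibitor, at -0.14 (SE 0.17). Without Old 5 the medians were 0.20 for tubule injury (22 of 28 above 0), 0.13 for extracellular matrix (34 of 45) and 0.13 for the p53 and senescence list (24 of 28).

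Levels of markers of neighbouring tissues also varied. All 15 adipocyte markers had a difference above 0 (median 0.88), with a median of 1.43 with YM and 0.24 with PM. The list's mean was 1.15 to 2.34 log2 CPM in Old, 2.43 to 3.54 with YM, 2.80 in Old+PM 1 and 1.05 and 1.32 in the other two Old+PM libraries, and Young libraries ran from 1.16 to 3.50. The defining fat genes were near 0: Adipoq had 0.58 CPM in Old and 1.76 CPM in treated kidneys, and Plin1 0.15 and 0.65 CPM. At an unadjusted p under 0.05, 3 of the 15 were higher (1.96% of all genes), Cidec, Car3 and Scd1. Red blood cell genes went the other way, with 2 of 8 above 0 and a median of -1.10 (-2.73 without Old 4, Old+YM 3 and Old+PM 3), and Hba-a1 ran from 42.9 to 586 CPM in Old and from 16.4 to 304 CPM in treated libraries. The share of such tissue in the values of kidney genes was not tested.

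**Figure D5:**
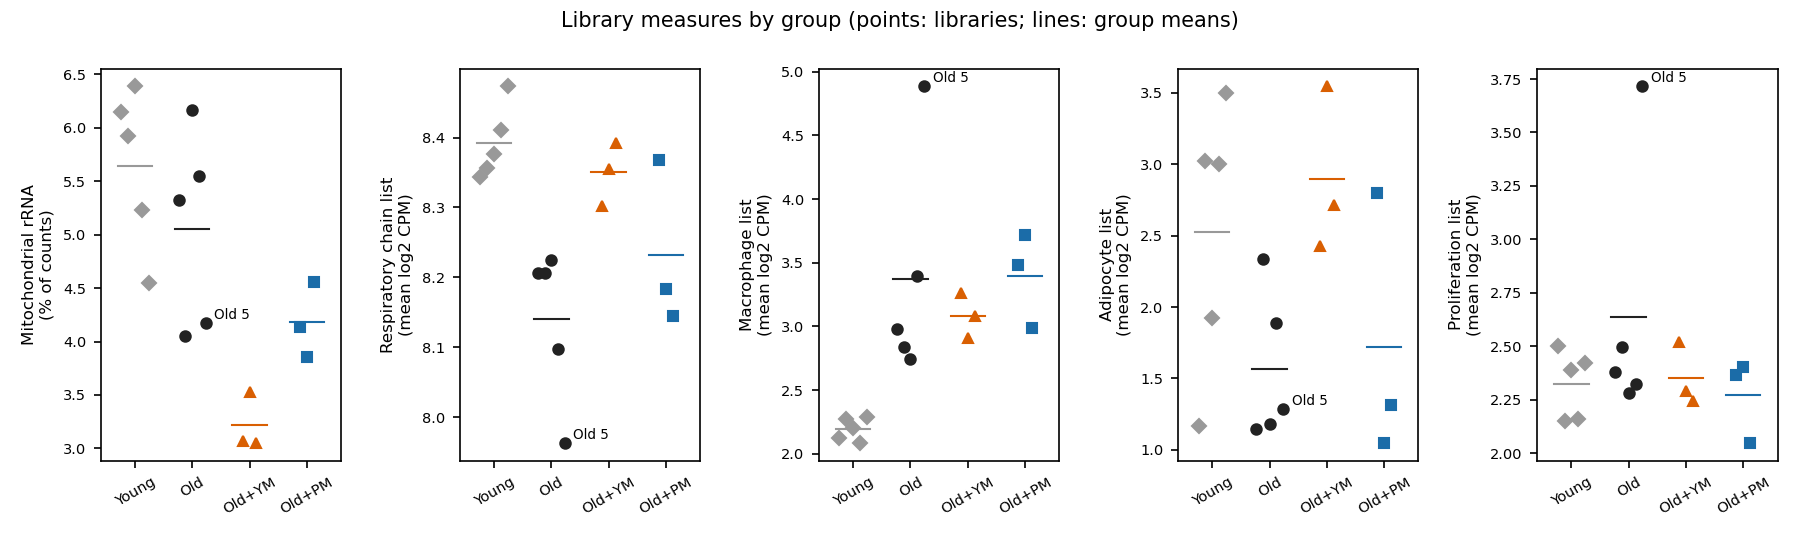
The 16 libraries by group (x axis) for the share of counts in mitochondrial ribosomal RNA and for the mean log2 CPM of 4 gene lists (y axes, which do not start at 0), with group means as lines. Old 5 is the highest for macrophage and proliferation markers and the lowest for the respiratory chain list, and 3 of 3 Old+YM but 1 of 3 Old+PM libraries lie above all Old libraries for adipocyte markers.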

How the data were processed

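Each library has 1 deposited file of raw, whole-number counts by gene symbol, without normalization. Reads were aligned to mm10, with Bowtie2 and bedtools named, per the submitters' processing notes; no source used here gives versions, annotation or strand setting, so overlapping and antisense genes cannot be told apart. All 16 libraries entered a fit with the levels Young, Old and treated in edgeR 4.0.16 (R 4.3.3): filterByExpr (minimum count 10) kept 14665 of 40879 symbols, TMM scaling, robust quasi-likelihood tests, two-sided, Benjamini-Hochberg over all genes. A second fit with 4 groups gave the formulas' own values. CPM use TMM-scaled library sizes. Totals of 8223008 to 10914515 counts put 1 CPM at about 8 counts or more, and intervals cover these libraries only. The rule for named genes took, where none passed, the 10 genes of smallest p per direction with at least 5 CPM and the same sign for both formulas. The members, lists and tests were chosen with earlier results of these data known. Alternatives used DESeq2 1.42.0, limma 3.58.1, other scalings, filters and libraries. Positions are from GENCODE M21 (GRCm38), where 28959 symbols had 1 position, and promoters from RefSeq (GRCm38.p6). No 2 libraries of a group agreed within counting noise (chi-square per degree of freedom at least 7.71).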

Additional observations from a re-analysis of the deposited data

Results flagged for a closer look

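Within the Old group of 5 and the treated group of 6, single libraries stood far from the rest in 21 of 130 sets of values examined, by Dixon's ratio of the gap to the range, where chance flags about 1 in 20. Old 5 accounts for 7 of them. It was high for the T and NK cell list (2.77 mean log2 CPM, the other Old libraries at most 0.66), the interferon response list (4.25, at most 2.56), the MHC class I list (6.73, at most 5.26), the p53 target list (4.0, at most 3.57), the thick ascending limb list (6.10, at most 5.89) and the proliferation list (3.72, at most 2.50), and low for the proteasome list (6.62, at least 6.75). Old 4 was low for the clock list (3.82, the others at least 4.42).

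Among treated libraries, Old+PM 3 was low for the complement list (3.21 mean log2 CPM, the others at least 3.86), the extracellular matrix list (3.75, at least 4.34), the endoplasmic reticulum stress list (4.66, at least 4.95), the glycolysis list (5.08, at least 5.68), the endothelial list (4.34, at least 4.75), the TGF-beta list (3.71, at least 4.12) and the sirtuin and FOXO list (4.58, at least 4.75). Old+YM 3 was high for gluconeogenesis and amino acid breakdown (7.29, the others at most 7.09), and Old+YM 2 for collecting duct principal cell markers (4.97, at most 4.60).

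Of the named genes, Dmgdh was low in Old+YM 1 (5.27 log2 CPM, the others at least 5.59), Tnfaip8 low in Old+YM 3 (7.60, at least 7.95), Tulp4 high in Old+YM 1 (3.70, at most 3.42) and Fnbp4 high in Old+PM 3 (4.48, at most 4.11).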

How the results depend on the processing

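Over 22 alternatives, treated against Old gave 0 genes in 19. The others were DESeq2 with 2 (Tnfaip8 and Tulp4), the fit without Old 4 and Old 5 with 1 (Tnfaip8) and the fit without Old 4, Old+YM 3 and Old+PM 3 with 1 (Ppp1r16b, adjusted p = 0.0463). The smallest adjusted p without 1 library ran from 0.0571 (without Old 5) to 0.999. None of the 440 values of named genes changed sign, and 3 passed. PM against YM gave 60 genes with DESeq2, 8 without a filter on low counts, 4 with limma-voom, 4 with aged libraries only, 3 with the clock score and 1 with the replicate block, and 0 in the other fits. With the replicate number as a block, treated against Old gave 0 genes. Of 9 same-number correlations 1 was over 0.1 (-0.09 to 0.16), and 3 of 9 libraries correlated best with their own number. So few libraries cannot show whether the same number stands for a shared batch or pairing. Higher genes at an unadjusted p under 0.05 numbered 608 without a filter and 469 with the clock score, and lower genes 877 without a filter and 353 without Old 4 and Old 5. Of 989 list medians under the alternatives, 977 moved by less than the spread between libraries. Some of these still crossed 0, such as the interferon response list (-0.07 to 0.51 without Old 5) and the chaperone list (-0.08 to 0.01 without Old 4). The 12 that moved more include the macrophage, T and NK cell and proliferation lists without Old 5. They also include the red blood cell list, from -1.10 to -2.73 without Old 4, Old+YM 3 and Old+PM 3. The proximal tubule list went from 0.06 to -0.10 without Old 4 and Old 5. The lysosome list went from -0.06 to 0.01 without Old 4, and the renin-angiotensin list from 0.19 to 0.35 without Old 2. The mitochondrial genome list gave no value where its genes were left out. Except where libraries were left out, the cause of these shifts was not tested. For YM against Old, leaving out libraries and DESeq2 were tried after the data were seen, and the log2 difference of Usp19 ran from 1.04 to 1.15 without 1 library. Depth limits genes under 5 CPM most.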

Other observations

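Urothelium markers had a median difference of 0.33 (7 of 9 above 0), with 0.86 for YM and -0.48 for PM, and 0.99 without Old 4. Markers of liver had a median of 0.29 (10 of 14 above 0) and female-biased genes 0.23 (11 of 13). Cytosolic ribosomal protein genes had a median difference of 0.04, with 45 of 77 above 0 and 63 intervals inside 1.5-fold. Chaperones had a median of -0.08 (7 of 30 above 0, 25 intervals inside 1.5-fold), 0.01 without Old 4 and -0.12 without Old 5, and lysosome and autophagy genes -0.06 (12 of 33 above 0, 29 inside), 0.01 without Old 4. Proteasome genes had a median of -0.01, and cholesterol synthesis genes 0.01. Antioxidant genes had a median of 0.10, with 26 of 37 above 0 and the metallothionein gene Mt1 at 510 CPM in Old and 619 CPM in treated kidneys (0.28, SE 0.12). Endothelial markers had a median of 0.08 and podocyte markers -0.04. Male-biased genes had a median of 0.07 with all libraries (13 of 25 above 0) and -0.05 without Old 5 (9 of 25). Their median was -0.15 with YM and 0.11 with PM. Single members ran from -0.62 to 1.02, among them Serpina1f at 62.2 and 103 CPM (0.72, SE 0.26). None of these genes passed the test over all genes.

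In the spliceosome and nuclear RNA list 4 of 25 genes were higher at an unadjusted p under 0.05 (Snrpb, Snrpd2, Srsf6 and Hnrnpa2b1) and 1 was lower, the nuclear long RNA Malat1 (-0.34, SE 0.16), beside 1.96% higher and 3.72% lower over all genes.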
